A study of Mus musculus with 6 samples.

Results

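Wnt signalling in the cochlear duct at postnatal day 8 was described here through 10 genes, taken from the expression table by symbol. They were *Lgr5*, *Lgr6*, *Rspo3*, *Znrf3*, *Ctnnb1*, *Lef1*, *Axin2*, *Frzb*, *Sfrp1* and *Dkk3*, 10 of the 14865 genes listed. Each symbol matched 1 gene, and all 10 genes passed the minimum for testing, which was 40 normalized reads in at least 1 library. RNA was measured by polyA RNA-seq in 3 libraries of wild-type Gfi1+/+ mice and 3 libraries of heterozygous Gfi1cre/+ mice, all on a C57BL/6 background. In Gfi1cre/+ mice, Cre recombinase takes the place of part of *Gfi1* on 1 of its copies. It is driven by the *Gfi1* promoter, which is active in hair cells (HCs), and in the study Cre had also recombined in immune cells of the inner ear, at a time in their development that is not known. Each Gfi1+/+ library held the 2 cochleae of 1 mouse, and each Gfi1cre/+ library pooled 6 cochleae of 3 mice, so the spread between Gfi1+/+ libraries is a spread between animals and that between Gfi1cre/+ libraries a spread between pools. The question was whether the expression of these Wnt genes differed between the genotypes before the onset of hearing.

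In canonical Wnt signalling, secreted Wnt proteins bind Frizzled receptors and the LRP5 and LRP6 coreceptors, which stops the breakdown of β-catenin and lets it act with TCF and LEF factors on target genes. R-spondins bind LGR receptors and hold off the ligases ZNRF3 and RNF43, which otherwise remove Frizzled receptors from the cell surface. In the neonatal cochlea *Lgr5* marks a subset of supporting cells that can give rise to HCs and is widely used as a progenitor marker. Secreted proteins of the SFRP family, to which *Frzb* belongs, bind Wnt ligands outside the cell.

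All 10 genes were well expressed, and their levels in the genotypes lay close together. Mean normalized reads in Gfi1cre/+ were 1.11 times those in Gfi1+/+ for *Rspo3* and 0.922 times for *Lef1*, and these were the members in which the libraries of the genotypes did not overlap. None of the 10 genes passed an adjusted p-value of 0.05 in limma's test across all 14455 tested genes, nor in edgeR's or DESeq2's test on the recovered reads. All 10 adjusted p-values in limma's test were 0.999. Of all tested genes, 0.0277% had an adjusted p under 0.05 in limma's test, 0.0277% in edgeR's and 0.0692% in DESeq2's. By the unadjusted p, 1 member (*Rspo3*) was under 0.05 in limma's test, 1 in edgeR's and 0 in DESeq2's, against 3.04%, 3.64% and 2.59% of all tested genes. In limma's test these were 1.02% with more and 2.02% with fewer reads in Gfi1cre/+. The libraries did not overlap in 2 members, 1 in each direction, against 7.52% of all tested genes (3.45% higher and 4.07% lower in Gfi1cre/+). Counts of 1 and 2 among 10 genes are too small to set the members apart from these shares. A library of whole duct holds many cell types, so that fewer cells of a type and less RNA per cell cannot be told apart.

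Some values of the libraries touch these results. Reads counted on genes ran between 13603908 and 16136022 per library in Gfi1+/+ and between 17939607 and 19359753 in Gfi1cre/+. Every Gfi1cre/+ library was thus deeper than every Gfi1+/+ library. Gfi1+/+ replicate 1 stood apart from the other libraries on the first principal component (54.3% of the variance), at -44.0 against -0.304 to 16.2. The genotypes did not overlap on it, with Gfi1+/+ replicates 2 and 3 at -0.304 and 2.15 and the Gfi1cre/+ libraries from 11.1 to 16.2. All 12 neuron markers of a list were tested. Their summed level was 14042 normalized reads in Gfi1+/+ replicate 1 and from 5540 to 7900 in the others. All 12 had negative log2 fold changes in Gfi1cre/+ (median -0.78), 6 with an unadjusted and 0 with an adjusted p under 0.05 in limma's test, and without Gfi1+/+ replicate 1 the median over the 11 then tested was -0.47, with 1 under 0.05. The summed bone and cartilage markers (13 of 14 tested) ran from 302220 to 426750 normalized reads in Gfi1+/+ and from 364610 to 390450 in Gfi1cre/+. Gfi1+/+ replicate 3 was the highest. Of these markers 12 had positive and 1 a negative log2 fold change (median 0.24), 1 with an unadjusted and 0 with an adjusted p under 0.05 in limma's test. Supporting cell and progenitor markers (17 of 18 tested, none at 0) summed to between 63840 and 69307 in Gfi1+/+ and between 67741 and 69127 in Gfi1cre/+. Of these 9 had positive and 8 negative log2 fold changes (median 0.0082), 0 with an unadjusted p under 0.05 in limma's test. The libraries did not overlap in 2 of them, both lower in Gfi1cre/+, against 7.52% of all tested genes. HC markers (12 of 13 tested) summed to between 10379 and 11664 in Gfi1+/+ and between 10093 and 10402 in Gfi1cre/+. Of these 2 had positive and 10 negative log2 fold changes (median -0.12), 1 with an unadjusted and 0 with an adjusted p under 0.05 in limma's test. The blood markers (erythroid and granulocyte genes, 9 of 10 tested) summed to between 29476 and 43876 in Gfi1+/+ and between 38453 and 66425 in Gfi1cre/+. All 9 blood markers had positive log2 fold changes, from 0.49 to 3.75 (median 0.60). They had an unadjusted p under 0.05 in limma's test, and 0 an adjusted one. Of all tested genes, 1.02% were higher and 2.02% lower in Gfi1cre/+ at this unadjusted p. With single libraries left out, 3 to 9 blood markers were under 0.05. Their median then ran from 0.40 without Gfi1+/+ replicate 1 to 0.86 without Gfi1cre/+ replicate 3. These marker lists were written with earlier results of these data known. The medians of the neuron, bone and cartilage, and blood markers are further from 0 than the log2 fold change of any of the 10 Wnt genes with all libraries. The Y-linked genes *Ddx3y*, *Kdm5d*, *Uty* and *Eif2s3y* summed to at most 2.10 normalized reads in Gfi1+/+ and to between 794 and 1621 in Gfi1cre/+. The X-linked *Xist* had between 7338 and 8138 in Gfi1+/+ and 5359, 4987 and 2301 in Gfi1cre/+ replicates 1, 2 and 3. Each Gfi1cre/+ pool thus held both Y-linked and *Xist* reads, to different degrees. Genotype and the mix of sexes of the pups cannot be told apart. *Gfi1* itself had 153 ± 6.72 normalized reads in Gfi1+/+ and 135 ± 4.65 in Gfi1cre/+ (SD, n = 3). Its log2 fold change was -0.18, with an adjusted p of 0.999 in limma's test. The study states that transcript left from the Cre allele, though not functional, still adds to the reads of *Gfi1*. By RT-qPCR of newborn cochleae it found less transcript of the replaced exons in Gfi1cre/+. The part of these differences between libraries in the results below was not tested, except where values without a library are given.

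**Figure D1:**
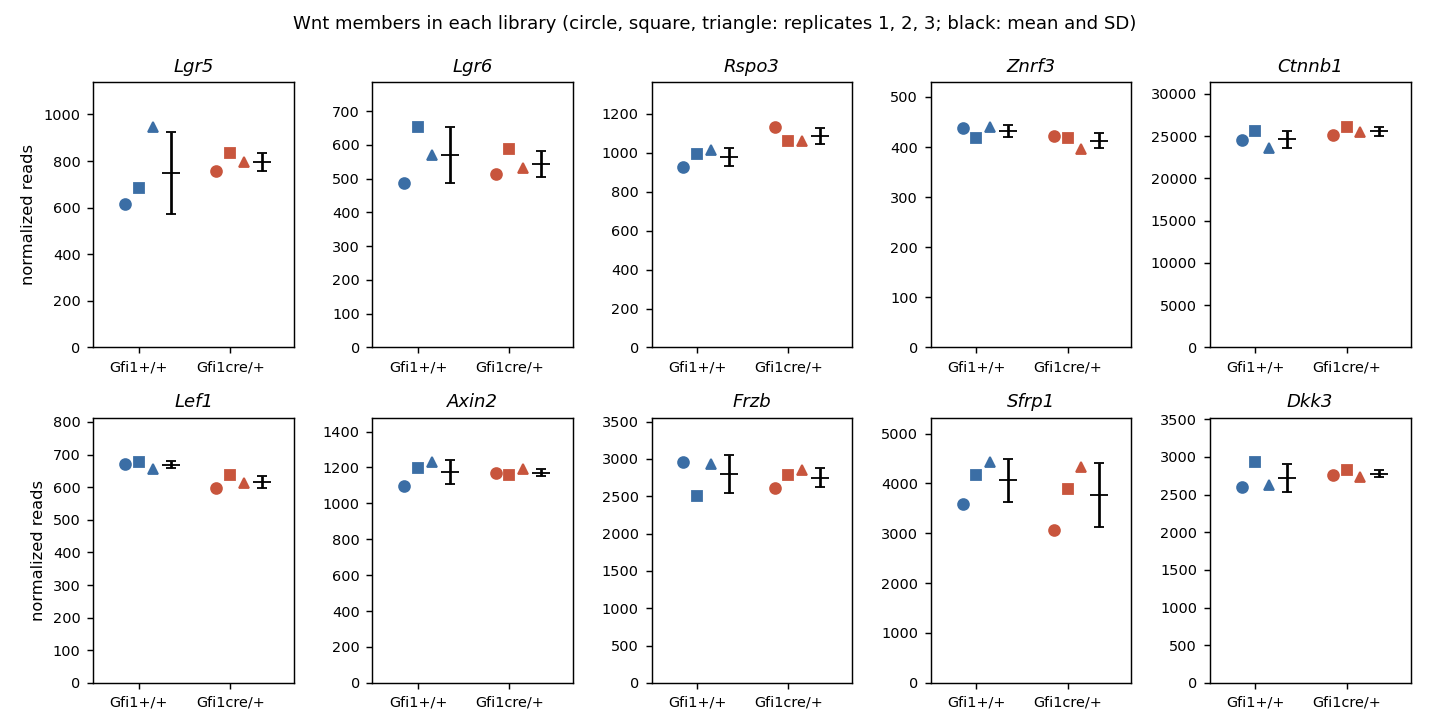
Normalized reads (vertical axes from 0) of the 10 Wnt genes in each library, in blue for Gfi1+/+ and red for Gfi1cre/+, with circle, square and triangle for replicates 1, 2 and 3 and the mean and SD in black. The libraries of the genotypes are apart in *Rspo3* and *Lef1*, and *Lgr5* spreads from 617 to 948 in Gfi1+/+.

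Levels of different genes were compared per kilobase of exon, with exon lengths from the GENCODE annotation of GRCm38. The exons of all annotated transcripts of a gene were merged for its length, so exons not used in these libraries would lower its level. The order depends on this length. By mean normalized reads in Gfi1+/+, *Lgr5* (750) and *Lef1* (668) were above *Lgr6* (571). *Ctnnb1*, which encodes β-catenin, was by far the highest, with 4739 ± 193 normalized reads per kilobase in Gfi1+/+ (SD, n = 3). The secreted proteins *Sfrp1* (929 ± 99.4), *Frzb* (863 ± 79.6) and *Dkk3* (810 ± 55.1) followed at similar levels per kilobase, and their ranges over the 6 libraries overlapped. *Rspo3* had 317 ± 15.1 normalized reads per kilobase and *Axin2* 213 ± 12.6, and each of these was apart from its neighbours in the order in all 6 libraries. *Lgr6* (83.3 ± 12.2), *Lef1* (76.1 ± 1.25) and *Lgr5* (73.0 ± 17.1) formed a lower group whose ranges per kilobase overlapped, and *Znrf3* (54.8 ± 1.53) was the lowest, below *Lgr5* in all 6 libraries. In Gfi1cre/+ the means per kilobase ran from 4924 for *Ctnnb1* to 52.3 for *Znrf3*.

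**Figure D2:**
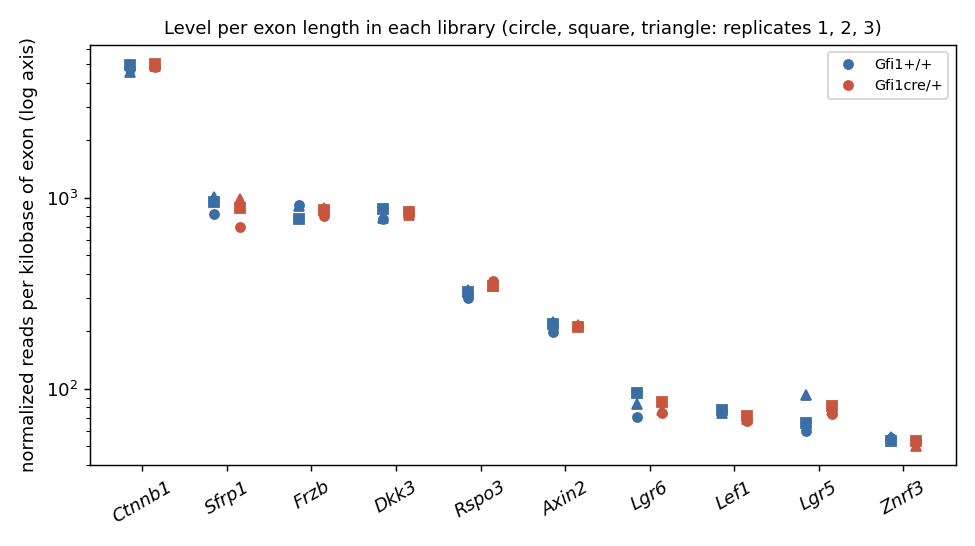
Normalized reads per kilobase of exon (log axis) of the 10 Wnt genes, ordered by their mean in Gfi1+/+, for each library of Gfi1+/+ (blue) and Gfi1cre/+ (red). *Ctnnb1* lies 5.10 times above *Sfrp1*, and *Lgr6*, *Lef1* and *Lgr5* overlap.

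Among the R-spondin genes, *Rspo3*, a secreted ligand of the LGR receptors, lies on the minus strand of chromosome 10 (GRCm38, between 29452416 and 29535867). Gfi1+/+ replicates 1, 2 and 3 held 927, 994 and 1017 of its normalized reads, and Gfi1cre/+ replicates 1, 2 and 3 held 1135, 1063 and 1061. Every Gfi1cre/+ library was above every Gfi1+/+ library. Limma gave a log2 fold change of 0.15 (standard error 0.0606, 95% interval from 0.013 to 0.29) with p = 0.0352 before and 0.999 after adjustment, and the two-sided exact permutation test gave p = 0.1, which no comparison of 3 with 3 libraries can go below. The nearest libraries of the genotypes were 44.6 normalized reads apart, where counting error alone gives this difference an SD of 45.5. The unadjusted p was 0.0357 in edgeR's test and 0.0731 in DESeq2's test, where *Rspo3* did not pass 0.05. When single libraries were dropped, the log2 fold change of *Rspo3* lay between 0.11 and 0.18. Its unadjusted limma p was 0.0146 without Gfi1+/+ replicate 3, where 16.2% of all tested genes were under 0.05. It was from 0.0553 to 0.133, past the threshold, without Gfi1+/+ replicates 1 or 2 or any of the 3 Gfi1cre/+ libraries.

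*Lgr5*, which encodes an R-spondin receptor, lies on chromosome 10 between 115450311 and 115587780, on the minus strand. It had 617, 684 and 948 normalized reads in Gfi1+/+ and 757, 836 and 797 in Gfi1cre/+, in the order of replicates 1 to 3. The Gfi1cre/+ libraries lay within the range of the Gfi1+/+ libraries. The coefficient of variation was 23.4% in Gfi1+/+ and 4.96% in Gfi1cre/+, against a counting error of at most 4.47% in a library. On the log2 scale, the SD of *Lgr5* over the 6 libraries was larger than that of 85.1% of the tested genes and the largest of the 10 members. In limma's fit the log2 fold change of *Lgr5* was 0.11 (standard error 0.138, 95% interval from -0.20 to 0.42), with an exact permutation p = 0.6, and a ratio of Gfi1cre/+ to Gfi1+/+ of up to 1.34 lay inside the interval. This value rested on single Gfi1+/+ libraries. Without replicate 3, the highest, the log2 fold change of *Lgr5* was 0.29, with an unadjusted p under 0.05 in limma's test. With this library left out, 16.2% of all tested genes were under 0.05, against 3.04% with all libraries. The adjusted p of *Lgr5* was then 0.116, where the other alternatives gave adjusted values of 0.999 to 1. Without replicate 1, the lowest, the log2 fold change of *Lgr5* was -0.016.

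*Lgr6*, the other R-spondin receptor of the set, lies on chromosome 1 between 134983301 and 135105276, on the minus strand. It had 488, 654 and 571 normalized reads in Gfi1+/+ and 513, 587 and 530 in Gfi1cre/+. The Gfi1cre/+ libraries again lay inside the range of Gfi1+/+. Replicate 2 was the highest library of both genotypes. *Lgr6* had a log2 fold change of -0.064 (standard error 0.107, 95% interval from -0.30 to 0.18) with an exact permutation p = 0.7, and this fold change was 0.040 without Gfi1+/+ replicate 2. *Znrf3*, the ligase that R-spondins hold off, lies on chromosome 11 between 5276324 and 5444847, on the minus strand. It had 438, 419 and 441 normalized reads in Gfi1+/+ and 423, 419 and 395 in Gfi1cre/+. Its genotypes overlapped by 4.18 normalized reads, with a log2 fold change of -0.069 (standard error 0.0657, 95% interval from -0.22 to 0.080) and an exact permutation p = 0.3.

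*Ctnnb1* lies on the plus strand of chromosome 9 between 120929216 and 120960507, and its 3′ part overlaps *Ulk4* on the other strand. Since the strand setting of the counting is not given in the sources used here, reads of these genes cannot be told apart there. *Ctnnb1* had 24573, 25617 and 23619 normalized reads in Gfi1+/+ and 25075, 26136 and 25486 in Gfi1cre/+. The ranges overlapped. For *Ctnnb1* the log2 fold change was 0.056 (standard error 0.0676, 95% interval from -0.097 to 0.21), with an exact permutation p = 0.3, and this fold change was 0.0058 with quantile normalization and 0.027 without Gfi1+/+ replicate 3. At 19908 reads or more in every library, counting error of *Ctnnb1* was at most 0.709%, well under the coefficients of variation of 4.06% in Gfi1+/+ and 2.09% in Gfi1cre/+.

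*Lef1* encodes a DNA-binding partner of β-catenin and is itself a Wnt target. It lies on the plus strand of chromosome 3 between 131110471 and 131224356. Gfi1+/+ replicates 1, 2 and 3 held 671, 677 and 656 of its normalized reads, and Gfi1cre/+ replicates 1, 2 and 3 held 599, 636 and 614. Every Gfi1cre/+ library was below every Gfi1+/+ library. Limma gave a log2 fold change of -0.12 (standard error 0.0578, 95% interval from -0.25 to 0.014) with p = 0.0743 before and 0.999 after adjustment, and the exact permutation test gave p = 0.1. The coefficient of variation of 1.65% between the Gfi1+/+ libraries was below the counting error of a single library (4.29% at the lowest count). The nearest libraries of the genotypes were 19.6 normalized reads apart, where counting error alone gives this difference an SD of 35.5. When single libraries were dropped, the log2 fold change of *Lef1* lay between -0.14 and -0.096, and its limma p between 0.0577 and 0.204.

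The promoter of *Lef1* is shown because *Lef1* was the β-catenin partner of the set and, of the members with a promoter window, the only one with a match to the letters TCF and LEF factors are known to bind. The letters searched on both strands were CTTTGAT and its variant CTTTGAA, together with CTTTGTT and its variant CTTTGTA, which cannot overlap each other on 1 strand, in RefSeq windows of 300 bases (250 before a start site and 50 after it) of GRCm38.p6. At least 1 match was found in 16.9% of the 32851 windows of all genes. Windows were at hand for 5 of the 10 members, *Lgr6*, *Ctnnb1*, *Lef1*, *Axin2* and *Frzb*, and 1 of their 9 windows, of the most downstream of 4 *Lef1* starts, had a match. The last 60 bases before the first *Lef1* start site (chr3:131110237-131110296, plus strand) are given with CG in capitals, and 61 bases around the match (chr3:131156120-131156180, plus strand) with the matching letters in capitals, which read CTTTGTA on the minus strand.
*Lef1* first start: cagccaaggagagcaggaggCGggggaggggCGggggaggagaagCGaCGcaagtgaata
*Lef1* downstream start: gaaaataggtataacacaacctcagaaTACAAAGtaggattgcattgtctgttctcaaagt
The first start lies 174 bases upstream of the *Lef1* gene of GENCODE and its window is 67.3% G and C. The downstream start lies in an intron, 190 bases before the next exon and 45997 bases from the first start, and its window is 43.7% G and C. A match is a description of the letters only, and the reads counted per gene do not separate the start sites.

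*Axin2*, a feedback inhibitor that Wnt signalling induces and the usual readout of the pathway, lies on the plus strand of chromosome 11 between 108920349 and 108950783. It had 1097, 1197 and 1231 normalized reads in Gfi1+/+ and 1168, 1156 and 1191 in Gfi1cre/+. All Gfi1cre/+ libraries lay inside the range of Gfi1+/+. Its log2 fold change was the closest to 0 of the 10 members, at -0.0027 (standard error 0.0600, 95% interval from -0.14 to 0.13, exact permutation p = 0.9), and the sign turned with small changes of scaling and with single libraries. The interval holds ratios of Gfi1cre/+ to Gfi1+/+ between 0.908 and 1.10.

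The secreted proteins *Sfrp1*, *Frzb* and *Dkk3* had higher levels than the other members except *Ctnnb1*. *Sfrp1*, on the plus strand of chromosome 8 between 23411502 and 23449632, had 3582, 4170 and 4430 normalized reads in Gfi1+/+ and 3069, 3890 and 4330 in Gfi1cre/+. Replicate 1 was the lowest library of both genotypes, and the ranges overlapped. *Sfrp1* had the widest spread of the members between the Gfi1cre/+ libraries, with a coefficient of variation of 17.0%, against 10.7% in Gfi1+/+ and a counting error of at most 1.86%. *Sfrp1* had a log2 fold change of -0.12 (standard error 0.125, 95% interval from -0.40 to 0.16) with an exact permutation p = 0.6, and this fold change was 0.021 without Gfi1cre/+ replicate 1.

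*Frzb*, a secreted Frizzled-related protein found in cartilage, lies on chromosome 2 between 80411970 and 80447625, on the minus strand. It had 2959, 2497 and 2926 normalized reads in Gfi1+/+ and 2606, 2786 and 2849 in Gfi1cre/+. The Gfi1cre/+ libraries lay within the range of Gfi1+/+, where replicate 2 was low. For *Frzb* the log2 fold change was -0.021 (standard error 0.0752, 95% interval from -0.19 to 0.15), with an exact permutation p = 0.8. *Dkk3*, a divergent member of the Dickkopf family, lies on chromosome 7 between 112116017 and 112159057, on the minus strand. It had 2598, 2934 and 2631 normalized reads in Gfi1+/+ and 2766, 2827 and 2735 in Gfi1cre/+. Gfi1cre/+ lay inside the range of Gfi1+/+ again, and the log2 fold change of 0.031 (standard error 0.0606, 95% interval from -0.11 to 0.17) had an exact permutation p = 0.6.

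**Figure D3:**
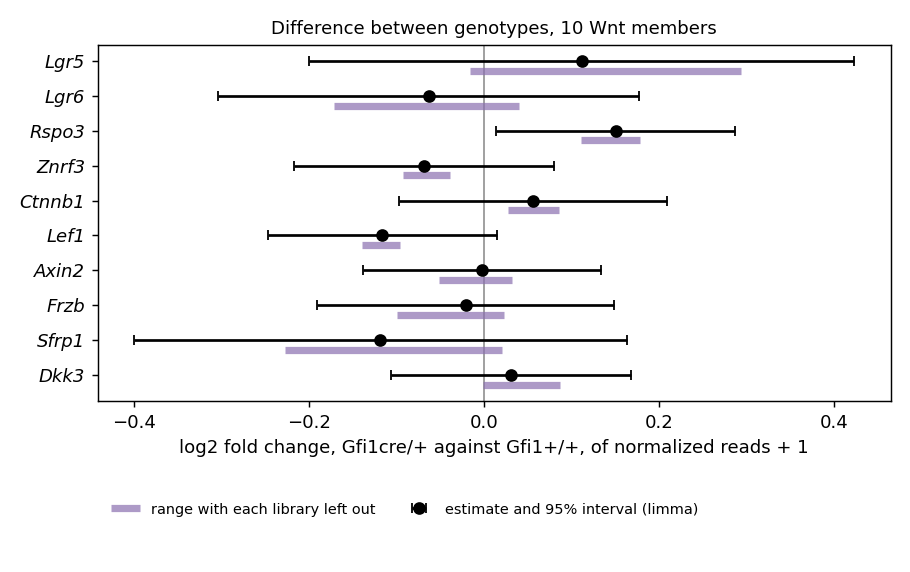
Log2 fold change of normalized reads + 1, Gfi1cre/+ against Gfi1+/+ (horizontal axis), of the 10 Wnt genes with limma's 95% interval in black and the range of the estimates with each of the 6 libraries left out in purple. The interval of *Rspo3* lies above 0, from 0.013 to 0.29, and the other 9 intervals hold 0.

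Over the 10 genes, 4 had a positive and 6 a negative log2 fold change, with a median of -0.012, where the median of all tested genes was -0.00012. The median absolute log2 fold change was 0.066 for the members and 0.059 for all tested genes. The SD of the log2 values was larger between the Gfi1+/+ than between the Gfi1cre/+ libraries in 7 of the 10 members (*Znrf3*, *Lef1* and *Sfrp1* were the exceptions), with medians of 0.0913 and 0.0540. Over all tested genes these medians were 0.119 and 0.0737. The furthest bound of any member's 95% interval was 0.42, that of *Lgr5*.

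The wider pathway was described with 96 further genes in 8 lists by role, of which 82 were listed and tested. *Wnt1*, *Wnt2*, *Wnt3*, *Wnt3a*, *Wnt8a*, *Wnt9b*, *Wnt10a*, *Wnt10b*, *Rspo4*, *Dkk4*, *Kremen2*, *Ascl2*, *Sp8* and *Fgf20* were not analysed here. None of the 82 genes passed an adjusted p of 0.05 in limma's, edgeR's or DESeq2's test. At an unadjusted p under 0.05, 1 gene was called in limma's test (1.22% against 3.04% of all tested genes), by edgeR 1 and by DESeq2 0. The libraries did not overlap in 6 genes (7.32% against 7.52%). A positive log2 fold change was found in 54 of the 82 genes and in 49.9% of all tested genes, and the median was 0.040. With single libraries dropped, between 48 of the 82 genes (median 0.015, without Gfi1+/+ replicate 1) and 59 (median 0.082, without Gfi1+/+ replicate 3) were positive. The median was 0.025 without Gfi1+/+ replicate 2, 0.060 without Gfi1cre/+ replicate 1, and between 0.027 and 0.028 without either of the other Gfi1cre/+ libraries.

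The gene under 0.05 was *Fzd2*, a Frizzled receptor. It had 1247, 1345 and 1267 normalized reads in Gfi1+/+ and 1440, 1361 and 1419 in Gfi1cre/+, so that all Gfi1cre/+ libraries were the higher ones. Limma gave a log2 fold change of 0.13 (standard error 0.0559) with p = 0.0458 before and 0.999 after adjustment, and the exact permutation test gave p = 0.1. Among the alternatives its unadjusted p ran from 0.0311 without Gfi1+/+ replicate 2 to 0.139 without Gfi1cre/+ replicate 1.

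The other genes without overlap, named after their values had been seen, had small log2 fold changes. These were *Wls*, which carries Wnt proteins to the cell surface (log2 fold change 0.023), the Wnt receptor *Ryk* (0.066), the kinase *Csnk1d* (0.10), the corepressor *Tle4* (0.11) and the TCF factor *Tcf7l2* (-0.11). *Wls* had 5201 ± 27.1 normalized reads in Gfi1+/+ and 5285 ± 15.4 in Gfi1cre/+ (SD, n = 3). *Tcf7l2*, the 1 of these genes with fewer reads in Gfi1cre/+, had 230, 251 and 251 normalized reads in Gfi1+/+ and 227, 225 and 224 in Gfi1cre/+.

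By role, 8 of 11 Wnt ligands had a positive log2 fold change and none an unadjusted p under 0.05 (median 0.059). The ligand with the highest level per kilobase was *Wnt5a*, known for signalling that does not act through β-catenin, with 7135 ± 590 normalized reads in Gfi1+/+ and 7419 ± 211 in Gfi1cre/+ (SD, n = 3), or 912 and 948 per kilobase. Of the 15 receptors 12 were positive and 1, *Fzd2*, was under 0.05 (median 0.043), and the highest was *Fzd9*, with 1317 ± 148 and 1426 ± 47.2 per kilobase. Both secretion genes were positive without passing 0.05, with *Wls* the higher, at 592 ± 3.08 and 601 ± 1.76 per kilobase. The other R-spondin genes *Rspo1*, *Rspo2*, *Lgr4* and *Rnf43* were all positive, none of them under 0.05 (median 0.092). The highest of them, the ligase *Rnf43*, had 187 ± 9.12 and 199 ± 5.88 normalized reads per kilobase.

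Of the 11 other genes listed as secreted inhibitors, among them the membrane receptor *Kremen1*, 7 were positive and none was under 0.05 (median 0.076). *Notum*, an enzyme that inactivates Wnt proteins, was the highest of them in Gfi1+/+, with 757 ± 135 normalized reads per kilobase, and had 718 ± 45.7 in Gfi1cre/+. *Wif1*, a secreted protein that binds Wnt ligands, had 685 ± 117 per kilobase in Gfi1+/+ and 721 ± 75.1 in Gfi1cre/+, so that the order of the means differed between the genotypes by less than their SDs. Of the 16 genes of the destruction complex and Dishevelled, 9 were positive (median 0.035), and *Csnk1d* was the highest, at 737 ± 23.1 and 791 ± 17.8 per kilobase. Of the 14 TCF factors and coregulators, 8 were positive (median 0.024), and *Ctbp1* was the highest, at 821 ± 37.7 and 854 ± 51.6 per kilobase. Of the 9 other Wnt target genes, 4 were positive (median -0.032), and *Tnfrsf19*, a receptor of the TNF family, was the highest, at 1206 ± 94.7 and 1215 ± 61.0 per kilobase. None of the genes in these 3 last lists had an unadjusted p under 0.05 in limma's test.

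**Figure D4:**
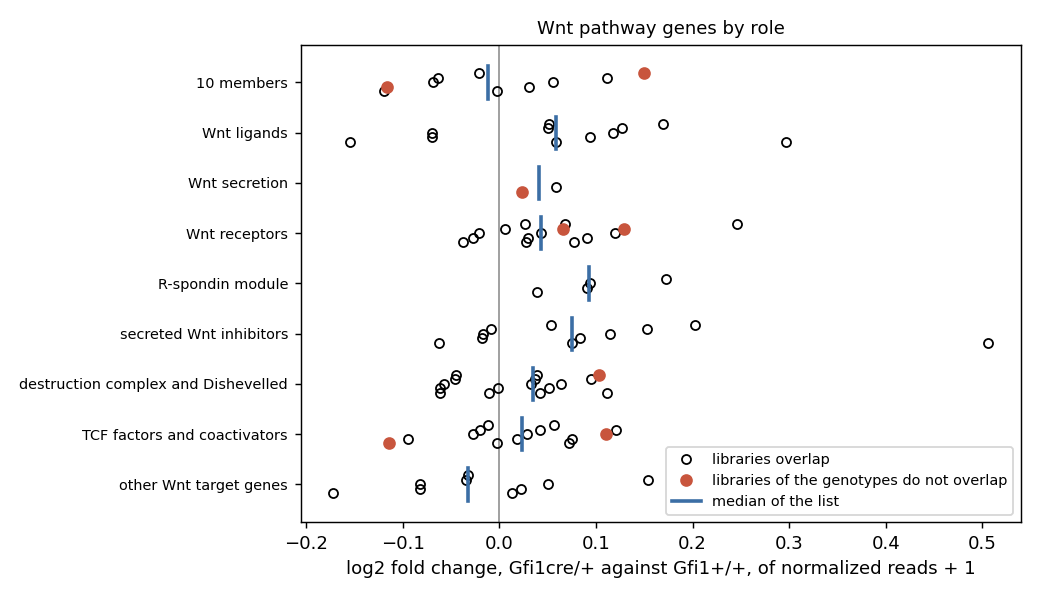
Log2 fold change of normalized reads + 1, Gfi1cre/+ against Gfi1+/+ (horizontal axis), of the 10 Wnt genes and of 82 further genes in 8 lists by role, 1 circle a gene. Filled red circles are genes whose libraries do not overlap between the genotypes, 2 of the 10 and 6 of the 82, and blue bars are medians, which lie between -0.032 and 0.092.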

How the data were processed

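PolyA RNA of 6 cochlear duct libraries was measured. The authors prepared TruSeq libraries, aligned reads to mm10 with TopHat, counted unique reads with HTSeq and deposited 1 normalized signal per gene and library, described as quantile-normalized. In each column, 100% of these deposited values were whole multiples of 1 step (tolerance 0.006), so each equals whole reads over a library's size factor. Versions, annotation and strand setting are not given in the sources used here.

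The members, lists and tests were chosen with earlier results of these data known. Genes reaching 40 normalized reads in 1 library or more were fitted with limma 3.58.1 (R 4.3.3) on log2(value + 1), which understates the change of low genes, with genotype as the only term, eBayes with a trend, two-sided, and Benjamini-Hochberg adjustment over 14455 genes. edgeR 4.0.16 and DESeq2 1.42.0 ran on the recovered reads. Exact permutation tests used scipy 1.17.1. Steps were tested on counts simulated with a common dispersion for all genes and libraries and with changes larger than those of the members. That check does not reach changes as small as those of the members. Named were all members, in each list the gene with the highest level per kilobase, and each gene with an unadjusted p under 0.05. A pattern was called alike by the root mean square difference of centred log2 values, for the 3 members with the largest SD. Intervals from counts cover counting error only. Positions and exon lengths came from GENCODE M21 (GRCm38), which held 14791 of the 14865 identifiers. All other alternatives are given in the closing section.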

Additional observations from a re-analysis of the deposited data

How the results depend on the processing

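The log2 fold changes of the members and *Fzd2* and the counts of calls were recomputed under 17 alternatives, and the count without overlap with each library left out. The alternatives were pseudocounts of 0.1 and 10, no minimum, a required mean of 200, no trend in limma, median centring, quantile normalization, TMM scaling, the replicate block, each library left out, edgeR and DESeq2. The signs of *Rspo3*, *Lef1*, *Znrf3*, *Ctnnb1* and *Fzd2* were the same under all of them. The size of the *Ctnnb1* value went down to 0.0058 with quantile normalization, and that of *Znrf3* ran from -0.092 to -0.039 with libraries left out. Under all 17, no member had an adjusted p under 0.05. The log2 fold change of *Axin2* was 0.0061 with median centring and 0.0014 with TMM scaling. With libraries left out it ran from -0.051 to 0.032, that of *Lgr5* from -0.016 to 0.293, of *Lgr6* from -0.172 to 0.040, of *Frzb* from -0.10 to 0.022, of *Sfrp1* from -0.227 to 0.021 and of *Dkk3* from -0.0011 to 0.086.

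Counts at an unadjusted p under 0.05 moved as follows. Members numbered 0 without a trend, 0 with DESeq2 and 0 to 2 with a library left out, the 2 being *Lgr5* and *Rspo3* without Gfi1+/+ replicate 3. The other pathway genes numbered 0 without a trend, 0 with quantile normalization, 0 with DESeq2, 2 with median centring and 0 to 18 with a library left out. The 18 were without Gfi1+/+ replicate 3 (all higher in Gfi1cre/+, 22.0%, where 16.2% of all tested genes were called). Without Gfi1+/+ replicate 2 there were 4 (4.88%, against 3.79% of all tested genes). Without Gfi1cre/+ replicate 1 there were 3 (3.66% against 2.16%), and without Gfi1cre/+ replicate 3 there were 0 (against 1.72%). All tested genes numbered 439 and were 229 at a mean of at least 200 and 212 to 2335 with a library left out. Their split was 147 higher and 292 lower, against 205 and 230 with quantile normalization and 102 and 127 at a mean of at least 200. At an adjusted p under 0.05 there were 4 genes, 0 at a mean of at least 200, 10 with DESeq2 and 0 to 48 with a library left out. Members without overlap numbered 2 to 6, the 6 without Gfi1+/+ replicate 2, where 15.95% of all tested genes did not overlap. With a library left out this share of all tested genes ran from 13.48% to 34.55%. The cause of these changes was not tested.

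With the replicate block, 0 members, 2 other pathway genes and 462 of all genes had an unadjusted p under 0.05, and 4 genes an adjusted one. Deviations of same-numbered libraries correlated at -0.0944, 0.107 and -0.0326 across genes, and 1 of the 3 Gfi1+/+ libraries, replicate 2, correlated best with its own number. Deviations of 3 libraries from their own mean are not independent, so these values cannot decide whether the numbers pair the samples. The unadjusted limma p of *Sfrp1* was 0.0878 with the block and 0.365 without it.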

Other observations

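The genes whose pattern over the 6 libraries was most like that of *Lgr5* were *Irx3os*, *Alpk1* and *Kif13b*, with root mean square differences of 0.0338, 0.0380 and 0.0422 between centred log2 values, where *Lgr5* itself had an SD of 0.218. *Kif13b*, a kinesin, had 1455, 1618 and 2063 normalized reads in Gfi1+/+ and 1710, 1947 and 1803 in Gfi1cre/+, with the same highest library as *Lgr5*. For *Sfrp1* (SD 0.200) the genes were *Dpm1*, *Trerf1* and *Art3*, at 0.0427, 0.0771 and 0.0812. For *Lgr6* (SD 0.153) they were *Gm5597*, *Ebf3* and *Pde3b*, at 0.0296, 0.0420 and 0.0434. All these values come from the same 6 libraries and were picked from 14455 genes, so they are descriptions of these libraries.

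Per kilobase of exon, the level of *Lgr5* was 0.845, 0.697 and 1.11 times that of *Lgr6* in Gfi1+/+ replicates 1, 2 and 3, and 0.986, 0.951 and 1.004 times in the Gfi1cre/+ replicates. The Gfi1cre/+ ratios lay inside the range of Gfi1+/+. The level of *Rspo3* per kilobase was 5.40, 6.06 and 5.89 times that of *Znrf3* in Gfi1+/+ and 6.85, 6.48 and 6.86 times in Gfi1cre/+, without overlap. The exact permutation test of this ratio gave p = 0.1, the smallest possible, and 0.4 after adjustment over the 4 ratios computed. The other ratios, *Sfrp1* to *Frzb* and *Lef1* to *Axin2*, overlapped.

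Among the other pathway genes, some spread widely between Gfi1+/+ mice and were chosen here after their values had been seen. *Ccnd1*, a cell cycle gene, had 1196, 2377 and 1233 normalized reads in Gfi1+/+ and between 1470 and 1656 in Gfi1cre/+. *Apcdd1*, a Wnt antagonist, had 5746, 4677 and 7485 in Gfi1+/+ and between 5747 and 6503 in Gfi1cre/+. *Sost*, a Wnt inhibitor of osteocytes, had the largest log2 fold change of the 82 genes, at 0.51 (standard error 0.291, adjusted p = 0.999 in limma's test). It had 88.9, 80.6 and 158 normalized reads in Gfi1+/+ and 101, 191 and 170 in Gfi1cre/+, so that the genotypes overlapped.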
